A study of Homo sapiens with 4 samples.

Results

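The nuclear pore genes and the nuclear transport factor genes of human U87MG glioblastoma cells were examined on Affymetrix PrimeView arrays, which read mRNA mainly near its 3' end. A list of 54 genes was used, 27 for subunits of the nuclear pore complex and 27 for importins, exportins and the RAN cycle. A gene was included when a probe set of the array carried its symbol alone, and its value was that of the probe set with the highest mean log2 signal. This gave 53 of the 54 genes, among 18132 genes in all. KPNA2, an importin alpha adaptor gene, has 1 probe set, which is shared with another symbol, so it has no value here. NUP210, a membrane protein gene of the pore, lay below the floor of 63.0 in signal on every array and entered no count, which leaves 26 pore genes and 26 transport factors.

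Cultures of this established cell line, grown in medium with serum, received 1 of 4 treatments for 24 h: mycophenolic acid (MPA) at 10 µM, guanosine at 100 µM, both compounds together, or DMSO. MPA inhibits IMP dehydrogenase, which starts the new synthesis of guanine nucleotides; cells can also make these by salvage of guanosine. Each treatment was read on 1 array. A difference given here is therefore between 2 arrays, with no replicate error and no test, and so few arrays limit its precision.

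The nuclear pore complex is a ring-shaped channel through the nuclear envelope. A Y-shaped scaffold complex forms its outer rings, an inner ring holds the central channel, and the channel is filled with subunits rich in phenylalanine and glycine repeats. Importins carry proteins into the nucleus and exportins carry proteins and RNA out. The small GTPase RAN gives the traffic its direction: RCC1 on chromatin loads RAN with GTP inside the nucleus, and RANGAP1 with RANBP1 promotes GTP hydrolysis in the cytoplasm.

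The median signal was between 61.8 and 64.5 on the 4 arrays, and log2 values of all probe sets correlated at 0.988 or above between arrays. The ACTB 3' minus 5' log2 value, a measure of RNA integrity, was 1.72 with MPA, 1.77 with guanosine, 1.89 with both compounds and 1.82 in DMSO. Poly-A control transcripts, spiked into the RNA, had a median log2 difference of -0.29 in MPA against DMSO and were lower in 12 of 12 probe sets. Their median was 0.22 in guanosine against DMSO and 0.27 in both compounds against DMSO, with 0 of 12 lower in either; their part in the results was not tested. All 6 measured markers of mesenchymal glioma lines, such as VIM and CD44, were above the floor on all 4 arrays. All 4 measured leukocyte markers were below the floor on every array, as were 3 of 4 astrocyte markers, 2 of 3 epithelial markers and 1 of 3 endothelial markers. The summed signal of 5 neuron and oligodendrocyte markers was 2182 with MPA, 1508 with guanosine, 1539 with both compounds and 1433 in DMSO; SNAP25 made up most of it, and its part in the results was not tested.

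MPA against DMSO asks what the inhibitor did to these genes. All 26 pore genes were lower on the MPA array, as were 24 of 26 transport factors, together 96.2% of the members, against 49.1% of the 11204 genes compared. The 2 members that were higher, KPNA1 and IPO13, are 3.8%, against 50.8% of all genes. After cyclic loess normalisation the counts of lower genes were 25 of 26 and 21 of 26. Shares of all genes that were lower or higher by any amount, here and below, are for the deposited values only. The median log2 difference was -0.49 for pore genes and -0.33 for transport factors, and the median of all genes was 0.01. At least 1.5-fold lower were 10 pore genes and 5 transport factors, 28.8% of the 52 members, where the same was true of 7.31% of all genes. No member was at least 1.5-fold higher (0 of 52, against 5.31% of all genes). In RNA from a whole culture, fewer cells with an mRNA and less of that mRNA per cell cannot be told apart.

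RCC1 and NUP85 were the members more than 2-fold lower, 2 of 52 or 3.8%, against 1.4% of all genes. After cyclic loess NUP85 was at -0.95, short of 2-fold. The MPA array was the lowest of the 4 for 49 of 52 members, or 94.2%, compared with 41.7% of 11272 genes. For 40 of the 52 members, the gap from the MPA array to the next array was larger than the whole range of the other 3 arrays, which was so for 27.6% of all genes. The exceptions to the lowest place were KPNA1, IPO4 and IPO13. The heat map of log2 differences shows each member in each comparison.

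**Figure D1:**
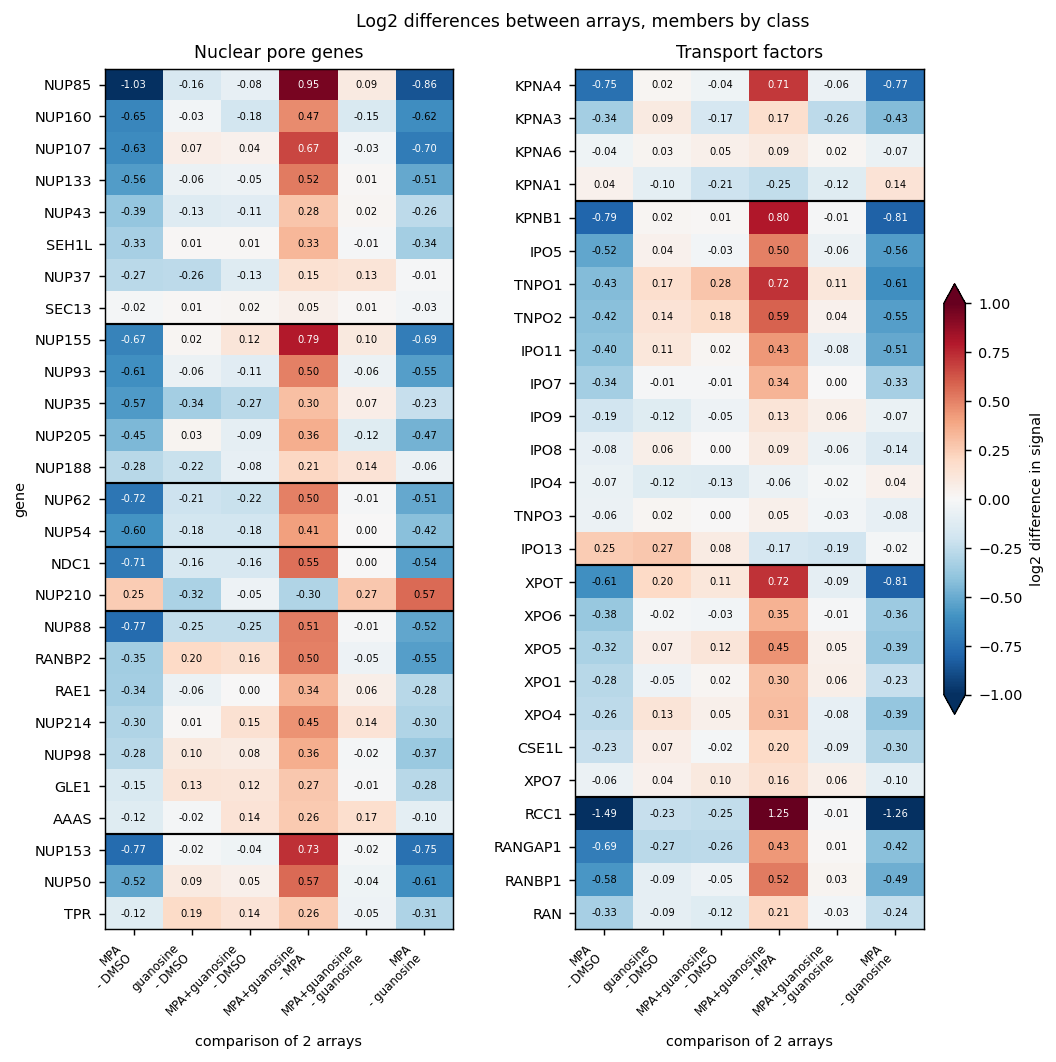
Log2 difference in signal between pairs of arrays (columns) for 27 pore genes (left) and 26 transport factors (right), with black lines between classes; blue is lower in the first-named condition and red higher, and colours stop at 1. The MPA minus DMSO and MPA minus guanosine columns are mostly blue, with NUP210 (below the floor on all arrays), IPO13 and KPNA1 higher in the first, and the MPA+guanosine minus guanosine column is pale throughout, between -0.26 for KPNA3 and 0.27 for NUP210.

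The promoter windows of the members that stood furthest below DMSO are shown because these genes were lower together. RefSeq windows (GRCh38.p14) from 250 bases before to 50 bases after a start were found for 48 of the 54 genes, but not for KPNB1, KPNA4, NUP43, GLE1, XPO7 or RANBP1. Those of RCC1 lie at chr1:28505793-28506092 and chr1:28517976-28518275 on the plus strand, for different starts. That of NUP85 is at chr17:75205429-75205728 on the plus strand, that of NUP153 at chr6:17706876-17707175 on the minus strand, and that of NUP88 at chr17:5419613-5419912 on the minus strand. Capitals mark matches, on either strand, to CACGTG (the E-box bound by MYC and MAX), the NRF1 motif, TTTCCCGC or TTTGGCGC (E2F), GGGCGG (SP1), CCAAT (NFY) and CCGGAAGT (ETS factors); none of these motifs contains another.
RCC1, upstream start: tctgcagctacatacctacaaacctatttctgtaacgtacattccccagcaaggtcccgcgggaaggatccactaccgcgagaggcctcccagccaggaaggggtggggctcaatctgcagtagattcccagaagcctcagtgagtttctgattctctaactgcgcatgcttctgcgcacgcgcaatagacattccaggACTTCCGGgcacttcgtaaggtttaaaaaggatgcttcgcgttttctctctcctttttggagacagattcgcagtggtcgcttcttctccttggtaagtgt
RCC1, downstream start: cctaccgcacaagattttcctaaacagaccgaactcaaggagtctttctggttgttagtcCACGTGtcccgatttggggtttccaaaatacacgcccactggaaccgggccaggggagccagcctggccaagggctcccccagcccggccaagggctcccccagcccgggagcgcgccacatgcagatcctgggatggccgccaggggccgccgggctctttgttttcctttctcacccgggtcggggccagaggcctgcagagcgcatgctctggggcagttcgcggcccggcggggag
NUP85: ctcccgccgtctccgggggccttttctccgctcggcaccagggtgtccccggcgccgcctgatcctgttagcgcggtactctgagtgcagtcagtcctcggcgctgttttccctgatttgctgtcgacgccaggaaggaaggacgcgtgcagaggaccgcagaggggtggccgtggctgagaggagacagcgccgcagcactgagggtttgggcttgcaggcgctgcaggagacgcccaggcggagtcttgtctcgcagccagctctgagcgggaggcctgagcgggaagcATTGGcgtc
NUP153: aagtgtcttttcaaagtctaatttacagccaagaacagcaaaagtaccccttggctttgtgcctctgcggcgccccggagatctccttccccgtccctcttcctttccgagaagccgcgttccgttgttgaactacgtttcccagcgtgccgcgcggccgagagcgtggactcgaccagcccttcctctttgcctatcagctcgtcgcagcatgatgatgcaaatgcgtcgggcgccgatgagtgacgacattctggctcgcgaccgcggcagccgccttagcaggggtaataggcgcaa
NUP88: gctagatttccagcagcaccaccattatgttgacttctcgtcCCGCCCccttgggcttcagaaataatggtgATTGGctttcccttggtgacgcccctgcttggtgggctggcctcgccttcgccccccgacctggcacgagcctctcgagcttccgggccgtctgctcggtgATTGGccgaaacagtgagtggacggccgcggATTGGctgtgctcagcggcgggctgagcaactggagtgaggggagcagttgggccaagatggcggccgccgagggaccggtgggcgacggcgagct

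The motifs in these windows differed from gene to gene. The windows of RCC1 held an ETS motif at the upstream start and an E-box at the downstream one. That of NUP85 held 1 CCAAT, here as its reverse complement, and that of NUP88 held 3 CCAAT and 1 GGGCGG. NUP153 held no match to these letters. Over the 48 genes, the E-box was in the windows of 9 (18.8%), compared with 10.9% of 14426 genes on the array with a window. It was in 2 of 25 pore genes, NUP50 and NUP188, and in 7 of 23 transport factors, among them RAN, RCC1 and XPO1. The ETS motif was in 8 members (16.7%, against 7.2% of all), the NRF1 motif in 3 (6.2%, against 2.1%), all pore genes (NUP50, NUP62 and NUP107), and an E2F motif in 1, NUP155 (2.1%, against 3.8%). GGGCGG was in 29 members (60.4%, against 65.7%) and CCAAT in 20 (41.7%, against 42.4%). A match describes letters and not binding.

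The Y complex, the scaffold of the outer rings, had 8 of 8 genes lower with MPA, with a median log2 difference of -0.48; after cyclic loess 7 were lower. NUP85, a scaffold subunit in the short arm of the Y, had a signal of 456 with MPA, 829 with guanosine, 879.8 with both compounds and 928 in DMSO. The MPA array stood apart from the other 3, 2.04-fold below DMSO, and its other probe sets differed by -0.85 and -0.79. NUP160 gave 247 with MPA, 380.3 with guanosine, 342 with both compounds and 388 in DMSO, 1.57-fold lower with MPA than in DMSO. NUP107, in the stem of the Y, read 889.7 with MPA, 1443 with guanosine, 1413 with both compounds and 1373 in DMSO, 1.54-fold lower with MPA, with the guanosine arrays slightly above DMSO. NUP133, its partner in the stem, differed by -0.56 on the log2 scale. NUP43 (-0.39), SEH1L (-0.33) and NUP37 (-0.27) were lower by less, and SEH1L had a second probe set at -0.69. SEC13, which is also a subunit of the COPII vesicle coat, stood at -0.02, turned to 0.02 after cyclic loess, and had 2 of 4 probe sets on each side of 0. NUP107 and NUP160 passed 1.5-fold with the deposited values and not after cyclic loess.

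The inner ring genes were lower in 5 of 5 cases, with a median of -0.57. NUP155, a membrane-near scaffold subunit, had a signal of 219.9 with MPA, 354 with guanosine, 379.6 with both compounds and 349 in DMSO, 1.59-fold lower with MPA. For NUP93, which anchors the channel subunits, the signal was 1148 with MPA, 1685 with guanosine, 1619.9 with both compounds and 1753 in DMSO, 1.53-fold lower with MPA and under 1.5-fold after cyclic loess. Both had 1 probe set. NUP35 differed by -0.57, with 4 probe sets between -0.62 and -0.54, NUP205 by -0.45 and NUP188 by -0.28.

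In the central channel, NUP62 and NUP54, whose repeats form the permeability barrier, were close to each other. NUP62 had a signal of 1033 with MPA, 1473 with guanosine, 1461 with both compounds and 1699 in DMSO, 1.64-fold lower with MPA, and its 4 probe sets lay between -0.77 and -0.69. NUP54 had 1362 with MPA, 1819.9 with guanosine, 1814 with both compounds and 2058 in DMSO, 1.51-fold lower with MPA, with 4 probe sets between -0.73 and -0.60, although it was at -0.53 after cyclic loess. On both genes the DMSO array was the highest, and the arrays with guanosine lay between it and the MPA array.

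Of the 2 membrane genes, 1 was above the floor. NDC1, which anchors the pore in the envelope, read 476 with MPA, 693 with guanosine, 695 with both compounds and 776 in DMSO, 1.63-fold lower with MPA, and its 3 probe sets lay between -0.82 and -0.71. NUP210, a glycoprotein that rings the pore inside the envelope, gave 62.4 with MPA, 42.0 with guanosine, 50.6 with both compounds and 52.5 in DMSO, all below the floor, so these values have no firm order.

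On the cytoplasmic face and among the mRNA export subunits, 7 of 7 genes were lower with a median of -0.30. NUP88, which docks the exportin XPO1 together with NUP214, was the lowest of these, at 538 with MPA, 771 with guanosine, 767 with both compounds and 915 in DMSO, 1.7-fold lower with MPA. Of its 5 probe sets, 4 were between -0.79 and -0.63, and the fifth, near the floor, was at -0.07. Among the 4, the probe set at -0.78 was also near or below the floor, at 36.8 with MPA and 63.1 in DMSO. RANBP2, which forms the cytoplasmic filaments and holds RANGAP1 at the pore, had 949 with MPA, 1391 with guanosine, 1346 with both compounds and 1208 in DMSO, 1.27-fold lower with MPA. NUP98, a repeat subunit that binds the mRNA export factor RAE1, had 242 with MPA, 313 with guanosine, 309 with both compounds and 293 in DMSO, 1.21-fold lower with MPA. For both, the arrays with guanosine lay above DMSO on the probe set used. Other NUP98 probe sets stood below DMSO, at -0.23 and -0.16 with guanosine and at -0.16 and -0.12 with both compounds. Those of RANBP2 lay near DMSO, between -0.07 and 0.09. With MPA, RAE1 itself was at -0.34, NUP214 at -0.30 and AAAS at -0.12. GLE1, which activates the helicase that strips export factors from mRNA, was at -0.15.

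In the nuclear basket, which faces the chromatin, NUP153 had a signal of 302 with MPA, 509.9 with guanosine, 503 with both compounds and 516 in DMSO, 1.71-fold lower with MPA. The other 3 arrays differed by at most 0.04 on the log2 scale. Its second probe set, with an MPA signal close to the floor, was at -0.35, and the median of the probe sets, -0.56, did not reach 1.5-fold. NUP50, which helps to release cargo from importin alpha, read 884 with MPA, 1348 with guanosine, 1313 with both compounds and 1271 in DMSO, 1.44-fold lower with MPA. Its 7 probe sets ran from -0.90 to -0.04, with a median of -0.90 when each array's median signal was taken. TPR, the main protein of the basket filaments, was at -0.12, and another of its probe sets was at 0.27.

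**Figure D2:**
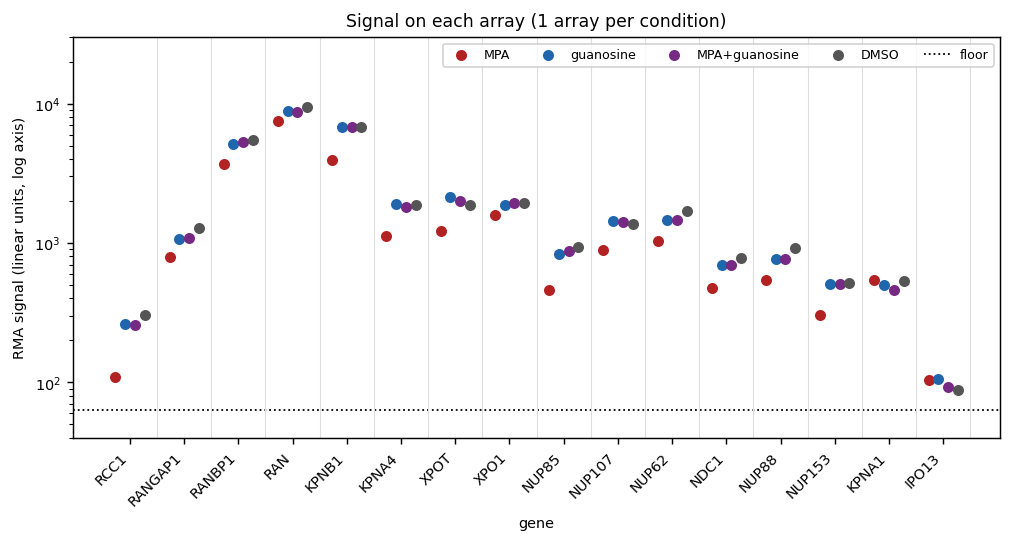
RMA signal (linear units on a log axis) on each of the 4 arrays for 16 members, 1 point per array, with the floor of 63.0 as a dotted line; levels of different genes are not comparable. The MPA point is the lowest for the first 14 genes, from RCC1 to NUP153, and not for KPNA1 and IPO13.

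Among the transport factors, the RAN cycle genes were lower in 4 of 4 cases, with a median of -0.63. RCC1, the exchange factor that loads RAN with GTP, had a signal of 109 with MPA, 260.1 with guanosine, 258 with both compounds and 306 in DMSO, 2.81-fold lower with MPA. This was the largest difference of any member, and it rests on 1 probe set: the other differed by -0.34, and the median of the 2 gave -0.91, short of 2-fold. RANGAP1, which triggers GTP hydrolysis by RAN, read 798 with MPA, 1066 with guanosine, 1077 with both compounds and 1287 in DMSO, 1.61-fold lower with MPA, and its other probe set was at -0.50. For RANBP1, which assists RANGAP1, the signal was 3669.8 with MPA, 5155 with guanosine, 5275 with both compounds and 5474 in DMSO, 1.49-fold lower with MPA and just short of 1.5-fold. Its second bright probe set was at -0.66 and a dim one at 0.15. RAN itself was among the members that differed less, at 7501 with MPA, 8835 with guanosine, 8651 with both compounds and 9416 in DMSO, 1.26-fold lower with MPA. A dimmer RAN probe set differed by -0.98, against -0.33 and -0.37 for the bright ones. With the median of probe sets RAN was at -0.67, past 1.5-fold. That median takes in another RAN probe set far below the floor, with a signal of 10 to 10.5. The middle value of the 3 above the floor was -0.37, short of 1.5-fold.

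The importin alpha genes, whose proteins recognise the classical import signal and join it to importin beta, were mixed, with a median of -0.19 over 4 genes. KPNA4 had a signal of 1116 with MPA, 1904 with guanosine, 1821 with both compounds and 1877 in DMSO, 1.68-fold lower with MPA, and another probe set above the floor was at -0.94. KPNA3 read 638 with MPA, 859 with guanosine, 718 with both compounds and 806 in DMSO, 1.26-fold lower with MPA. KPNA6 (-0.04, and 0.04 after cyclic loess) and KPNA1 (0.04) lay near 0, and KPNA1 had 2 probe sets lower and 3 higher.

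The importin beta type carriers had 10 of 11 genes lower, 9 after cyclic loess, with a median of -0.34. KPNB1, the carrier that takes importin alpha and its cargo through the pore, had a signal of 3915 with MPA, 6856 with guanosine, 6812 with both compounds and 6778 in DMSO, 1.73-fold lower with MPA. The other 3 arrays were within 0.02 of each other on the log2 scale. All 5 KPNB1 probe sets were lower, between -1.10 and -0.79, and the probe set used is the one with the smallest difference. IPO5, a carrier of ribosomal proteins and histones, had 1356 with MPA, 1998 with guanosine, 1915 with both compounds and 1948 in DMSO, 1.44-fold lower with MPA. Another IPO5 probe set of similar brightness (1849 in DMSO) was at -0.21, and a dimmer one at -0.36. TNPO1, which imports hnRNP proteins, gave 1008 with MPA, 1534 with guanosine, 1657 with both compounds and 1361 in DMSO, 1.35-fold lower with MPA, and its paralogue TNPO2 gave 259 with MPA, 379 with guanosine, 389.5 with both compounds and 345 in DMSO, 1.33-fold lower. On the probe sets used for both, the arrays with guanosine were above DMSO. Other bright TNPO1 probe sets stood at -0.01 and -0.25 with guanosine, and at -0.03 and -0.29 with both compounds. A dim TNPO1 probe set was at 0.26 and 0.01, and a second TNPO2 probe set at 0.19 and 0.21. IPO11 (-0.40, below the floor with MPA) and IPO7 (-0.34) were lower with MPA by less. IPO9 (-0.19), IPO8 (-0.08), IPO4 (-0.07) and TNPO3 (-0.06), the importer of SR splicing factors, were nearer to 0, and TNPO3 was at 0.02 after cyclic loess. IPO13, which both imports and exports, was the highest member at 0.25, with a signal of 104 with MPA, 105 with guanosine, 92.4 with both compounds and 87.5 in DMSO.

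The exportins were lower in 7 of 7 cases, 6 after cyclic loess, with a median of -0.28. XPOT, which exports transfer RNA, had a signal of 1218 with MPA, 2140.4 with guanosine, 2009.9 with both compounds and 1864 in DMSO, 1.53-fold lower with MPA. It has 1 probe set and stood at -0.55 after cyclic loess. XPO6, the exportin of actin and profilin, read 450.4 with MPA, 579 with guanosine, 575 with both compounds and 585 in DMSO, 1.3-fold lower with MPA. XPO1, the main exportin of proteins with a leucine-rich signal, had 1583 with MPA, 1859 with guanosine, 1943 with both compounds and 1920.1 in DMSO, 1.21-fold lower, and its 4 probe sets lay between -0.32 and -0.18. CSE1L, which returns importin alpha to the cytoplasm, had 3314 with MPA, 4067 with guanosine, 3818 with both compounds and 3879.8 in DMSO, 1.17-fold lower with MPA. The CSE1L value came from a probe set that can bind several genes, and without such probe sets the difference was -0.45. XPO5, the exporter of microRNA precursors, was at -0.32 and below the floor with MPA, XPO4 was at -0.26, and XPO7 at -0.06, which became 0.01 after cyclic loess.

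Pore genes lay below transport factors in MPA against DMSO, with a difference of medians of -0.15 on the log2 scale, and between -0.20 and -0.11 under the 6 alternatives. This difference was not tested. In MPA against guanosine it was -0.07. The middle 50% of pore genes ran from -0.64 to -0.29 and that of transport factors from -0.50 to -0.11, so the 2 groups overlap, as the cumulative plot shows.

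**Figure D3:**
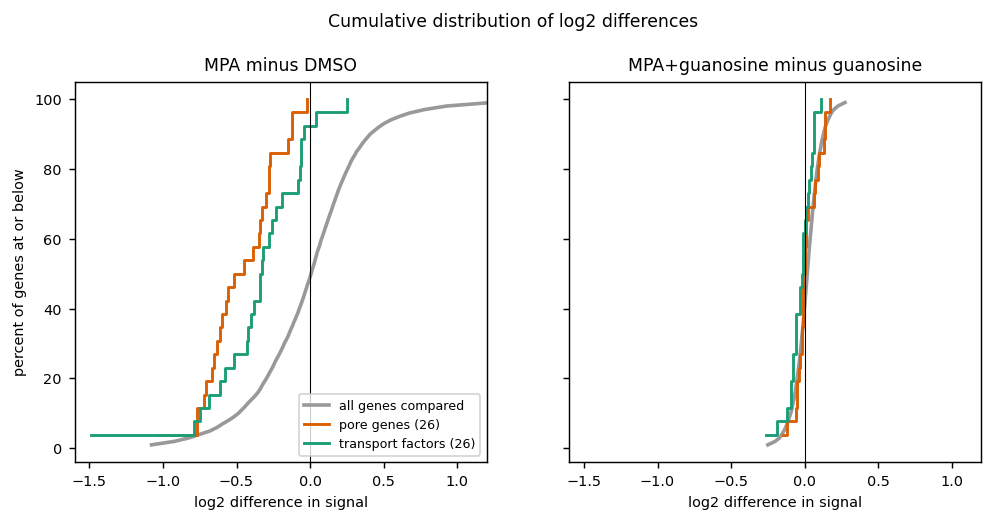
Percent of genes (vertical axis) at or below each log2 difference in signal (horizontal axis) for 26 pore genes, 26 transport factors and all genes compared, the last drawn from the 1st to the 99th percentile. In MPA minus DMSO (left) the pore genes lie left of 0 and left of all genes, with medians of -0.49, -0.33 for transport factors and 0.01 for all genes; in MPA+guanosine minus guanosine (right) the curves run together, with medians of -0.01, -0.01 and 0.02.

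Most probe sets of the members lay on the same side. Of 142 member probe sets above the floor, 128 were lower with MPA than in DMSO, where 51.7% of all 23675 single-symbol probe sets were lower. Among the 90 that were not used as the gene's value, 78 were lower (86.7%), 31 of them by at least 1.5-fold (34.4%), against 54% and 7.8% of 12471 such probe sets of all genes. Of 41 members with at least 2 probe sets above the floor, 32 had them all lower (78%, against 37.2% of 6244 genes) and 9 had them on both sides of 0. The plot of all probe sets shows the spread within each gene.

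**Figure D4:**
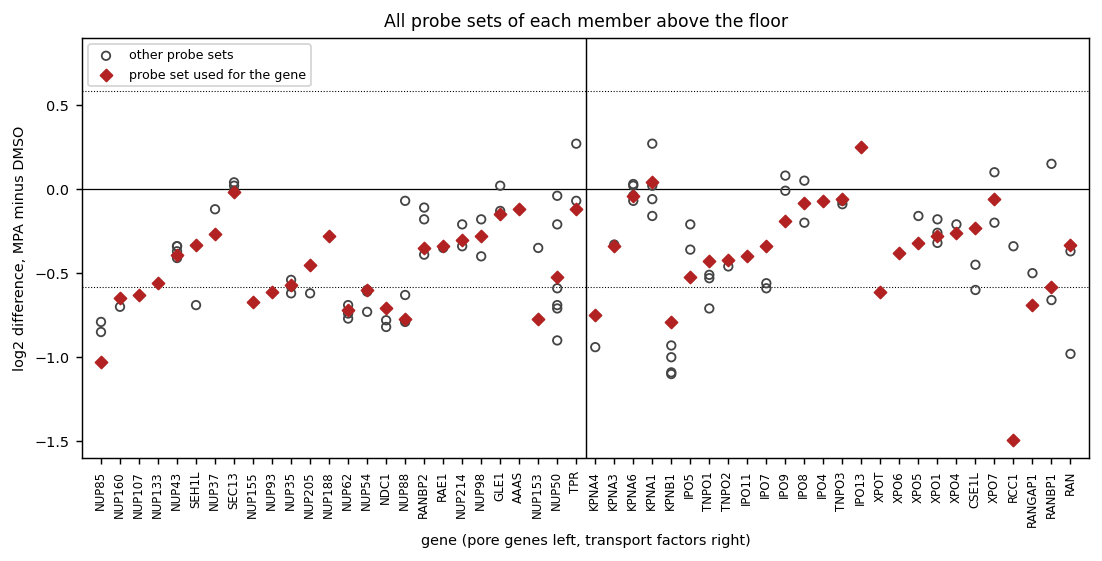
Log2 difference in signal, MPA minus DMSO, for each probe set above the floor (142 in all) of 52 members; filled diamonds are the probe sets used for the genes, open circles the others, dotted lines mark 1.5-fold. RCC1, NUP50, RANBP1, NUP88 and RAN have probe sets that lie far apart, and the 5 of KPNB1 lie between -1.10 and -0.79.

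Other genes of the pathway, outside the list of 54, were counted in the same way for MPA against DMSO. Of 6 other pore genes, 4 were above the floor, and 3 of these were lower, with a median of -0.23; NUP58, a channel subunit, was at -0.28 and AHCTF1, which seeds pores on chromatin, at -0.26. Of 9 other transport factors, 8 were above the floor, 2 lower and 6 higher, with a median of 0.07. RANBP6 was at -0.40, KPNA7 at 0.25, and HIKESHI, the importer of heat shock protein HSP70 chaperones, at 0.20. Of all genes, 49.1% were lower. In neither list did a gene pass 1.5-fold (0 of 4 and 0 of 8), but few would at the shares of all genes, 7.31% lower and 5.31% higher.

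Guanosine against DMSO asks what the nucleoside did alone, and no member passed 1.5-fold (0 lower, against 0.11% of all genes, and 0 higher, against 0.339%). The median was -0.02 for pore genes and 0.03 for transport factors. Of 52 members, 25 were lower, against 50.3% of all genes. After cyclic loess 27 members were lower. A difference under 0.1 was found for 30 members (57.7%), near the 52.7% of all genes. The furthest below DMSO were NUP35 (-0.34), RANGAP1 (-0.27), NUP37 (-0.26), NUP88 (-0.25) and RCC1 (-0.23). All 4 RAN cycle genes were lower, with RAN and RANBP1 at -0.09 each. The highest were IPO13 (0.27), RANBP2 (0.20), XPOT (0.20) and TPR (0.19).

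MPA with guanosine against DMSO compares the combined treatment with vehicle, and again no member passed 1.5-fold (0 lower, against 0.137% of all genes, and 0 higher, against 0.421%). Of the members, 28 were lower, against 45.7% of all genes. After cyclic loess 31 members were lower. The medians were -0.04 for pore genes and 0.00 for transport factors, and every one of the 52 members lay within 0.3 of DMSO. NUP35 (-0.27), RANGAP1 (-0.26), NUP88 (-0.25), RCC1 (-0.25) and NUP62 (-0.22) were furthest below and TNPO1 (0.28) and TNPO2 (0.18) furthest above. Other TNPO1 probe sets lay lower, as given above. This comparison shares the DMSO array with that of guanosine alone. The DMSO array was the highest of the 4 for 21 of 52 members, or 40.4%, compared with 20.5% of all genes, among them 13 of 26 pore genes. The guanosine array was the highest for 19 members, or 36.5%, compared with 14.9%, and the lowest for 0, where 19.7% of all genes had their lowest value. The MPA array was the highest for 1.92% of members, against 41.3% of all genes, so these shares partly restate its low values.

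MPA with guanosine against MPA gives the guanosine difference under the inhibitor. All 26 pore genes and 23 of 26 transport factors were higher with both compounds, together 94.2%, against 51.8% of 11215 genes; after cyclic loess the counts were 25 and 20. The median was 0.43 for pore genes and 0.32 for transport factors, and 0.02 for all genes. At least 1.5-fold higher were 10 members (19.2%, against 8.47% of all genes), 4 of them pore genes, and 0 were at least 1.5-fold lower (4.77% of all genes). RCC1 was the only member past 2-fold, 2.37-fold higher with both compounds than with MPA (1 of 52, against 1.55% of all genes), and with the median of its probe sets its log2 difference was 0.70. NUP85 was 1.93-fold, KPNB1 1.74-fold, NUP155 1.73-fold and NUP153 1.66-fold higher. TNPO1, TNPO2, XPOT, KPNA4 and NUP107 completed the 10, between 1.51-fold for TNPO2 and 1.65-fold for XPOT. With the median of probe sets, TNPO1 stood at 0.23 and NUP153 at 0.51, below 1.5-fold. For TNPO1 this equals the lowest of its probe sets above the floor, which ran from 0.23 to 0.73. KPNA1 (-0.25), IPO13 (-0.17) and IPO4 (-0.06) were lower. The MPA array stands in this comparison and in MPA against DMSO, so the opposite signs are not independent. The poly-A control transcripts had a median difference of 0.60 here, and their part in the result was not tested.

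MPA with guanosine against guanosine gives the MPA difference under added guanosine; neither of its arrays enters MPA against DMSO. The medians were -0.01 for pore genes and -0.01 for transport factors. No member passed 1.5-fold (0 lower, against 0.0184% of all genes, and 0 higher, against 0.0%). In all, 30 of 52 members were lower, where 40.9% of 10861 genes were lower, and 22 were higher, where 58.8% of all genes were. After cyclic loess 33 members were lower. Of the 52, 41 (78.8%) differed by less than 0.1 in either direction, near the 74.9% of all genes. RCC1 was at -0.01, NUP85 at 0.09, KPNB1 at -0.01, KPNA4 at -0.06 and NUP153 at -0.02. The furthest from 0 were KPNA3 (-0.26), IPO13 (-0.19) and AAAS (0.17).

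MPA against guanosine sets the 2 single compounds side by side and replaces the DMSO array. All 26 pore genes and 24 of 26 transport factors were lower with MPA than with guanosine, against 49.7% of 11206 genes. KPNA1 and IPO4 were higher, 3.8% of the members, against 50.2% of all genes. After cyclic loess 23 pore genes and 22 transport factors were lower. The medians were -0.45 and -0.38, and 11 members were at least 1.5-fold lower (21.2%, against 7.5% of all genes), and 0 at least 1.5-fold higher (5.11% of all genes). RCC1 was at -1.26, NUP85 at -0.86, KPNB1 at -0.81, XPOT at -0.81 and KPNA4 at -0.77. NUP37 (-0.01), NUP188 (-0.06) and NUP35 (-0.23), which were lower than DMSO with guanosine as well, lay closer to 0 here than in MPA against DMSO. The median of the poly-A control transcripts was -0.50, and its part was not tested.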

How the data were processed

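Total RNA from 4 cultures of U87MG cells, 1 per treatment, was measured on PrimeView arrays. The deposited values are probe set intensity on the linear scale, named RMA signal per the labels; software and settings: not given in the sources used here. RMA sets the arrays to one distribution, so a change in total mRNA per cell would not be seen.

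From these the log2 was taken, with no pseudocount. Of 49395 probe sets, 102 are array controls, and of the others 44988 carry a single symbol, 1832 carry several, and 2473 have none listed. Symbols of all 53 members matched RefSeq through Entrez IDs. Of the members, 6 took their value from probe sets ending in _x_at, which can bind several genes. The floor was set at 63.0 in signal (5.98 in log2), the median over the 4 arrays without control probe sets, and a gene entered a comparison when 1 of its 2 arrays reached it. Members were counted at 1.5-fold and 2-fold, beside all genes compared. With 1 array per condition there is no test and no p-value. Counting was tested on simulated data. Members, classes and lists were chosen with earlier results of these data known. Values on all 4 arrays are given for the 2 members of each class with the largest difference in MPA against DMSO, members past 1.5-fold in any of 6 comparisons, and RAN, RCC1, RANGAP1, RANBP1, XPO1, KPNB1, CSE1L, NUP98, NUP107 and NUP153; promoter windows are those of the lowest members, chosen after their values were seen. Alternatives were other probe set rules, other floors and cyclic loess (limma 3.58.1, R 4.3.3, 3 iterations). Python 3.11.15 and pandas 2.3.3 were used. Some genes of the marker and pathway lists are not reported here.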

Additional observations from a re-analysis of the deposited data

Results flagged for a closer look

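A closer look is due where a compound's log2 difference had opposite signs with and without the other compound, each at least 0.1 in size, a minimum set after the values were seen. With 1 array per condition, the difference between the differences was not tested. Each value uses all 4 arrays.

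For the MPA difference, this held for 7 members, 13.5% of 52, near the 10.7% of 11272 genes. AAAS differed by 0.17 with guanosine present and -0.12 without it, 0.29 apart. IPO13 differed by -0.19 with guanosine present and 0.25 without it, -0.44 apart. NUP155 differed by 0.10 with guanosine present and -0.67 without it, 0.77 apart. NUP188 differed by 0.14 with guanosine present and -0.28 without it, 0.43 apart. NUP214 differed by 0.14 with guanosine present and -0.30 without it, 0.44 apart. NUP37 differed by 0.13 with guanosine present and -0.27 without it, 0.40 apart. TNPO1 differed by 0.11 with guanosine present and -0.43 without it, 0.54 apart. The values with guanosine present are at most 0.19 in size. Other TNPO1 probe sets above the floor were at -0.02, -0.04 and -0.25 with guanosine present, and those of NUP214 at 0.01 and -0.07. For these genes the opposite signs rest on the probe set used.

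For the guanosine difference, it held for 13 members, 25% of 52, against 13.9% of all genes. With MPA present, 94.2% of members were higher with guanosine, against 51.8% of all genes, so the larger share partly follows from that comparison. IPO13 differed by -0.17 with MPA present and 0.27 without it, -0.44 apart. IPO9 differed by 0.13 with MPA present and -0.12 without it, 0.25 apart. NDC1 differed by 0.55 with MPA present and -0.16 without it, 0.71 apart. NUP188 differed by 0.21 with MPA present and -0.22 without it, 0.43 apart. NUP35 differed by 0.30 with MPA present and -0.34 without it, 0.64 apart. NUP37 differed by 0.15 with MPA present and -0.26 without it, 0.40 apart. NUP43 differed by 0.28 with MPA present and -0.13 without it, 0.41 apart. NUP54 differed by 0.41 with MPA present and -0.18 without it, 0.59 apart. NUP62 differed by 0.50 with MPA present and -0.21 without it, 0.71 apart. NUP85 differed by 0.95 with MPA present and -0.16 without it, 1.11 apart. NUP88 differed by 0.51 with MPA present and -0.25 without it, 0.76 apart. RANGAP1 differed by 0.43 with MPA present and -0.27 without it, 0.70 apart. RCC1 differed by 1.25 with MPA present and -0.23 without it, 1.48 apart. RCC1 and NUP85 were the furthest apart. For RCC1 the probe set not used for the gene had a smaller MPA difference, as given above. Other IPO9 probe sets above the floor were at -0.21 and -0.20 with MPA present, and the other NUP37 probe set at 0.00. Without MPA, other NUP43 probe sets above the floor lay between -0.10 and 0.19, and those of NUP85 at 0.01 and -0.11. For these genes the opposite signs were not shared by all probe sets.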

How the results depend on the processing

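No paired analysis was possible because there is 1 array per condition. The medians of pore genes and of transport factors and the counts past 1.5-fold in each direction, in 6 comparisons, were recomputed without _x_at probe sets, with the median of probe sets, with no floor, with the floor at the 75th percentile (244.4), after cyclic loess, and with genes whose probe sets had one sign only. None of these 144 values moved by more than 0.1 (medians) or by more than 1.5 times (counts). The 144 include counts of 0 that stayed at 0, for which a ratio has no meaning. In MPA against DMSO the count of 15 fell to 10 and the transport median of -0.33 moved to -0.43, at or near these limits. The last alternative chose genes by the direction of their probe sets, so it is not independent of the result. In MPA against DMSO the pore median ran from -0.56 to -0.42 and the transport median from -0.43 to -0.29. The count of members at least 1.5-fold lower ran from 10, after cyclic loess, to 17, with the median of probe sets. The shares of all genes were 6.11% after cyclic loess and 6.88% with the median of probe sets. The 17 include RAN, whose median takes in a probe set below the floor. With the median of probe sets, 45 of 50 members compared were lower with MPA than in DMSO, but the share of all genes lower was not taken there. In MPA with guanosine against MPA the medians ran from 0.35 to 0.49 and from 0.26 to 0.39. The count at least 1.5-fold higher ran from 8, after cyclic loess (6.87% of all genes), to 11, with the median of probe sets (7.86%). With the floor at the 75th percentile, 8.99% of all genes were at least 1.5-fold lower with MPA than in DMSO. Values of single members in these comparisons were recomputed without _x_at probe sets, with the median of probe sets and after cyclic loess only. With the median of probe sets, 25 moved by more than 0.1 and 31 did not. After cyclic loess 3 moved and 53 did not, and without _x_at probe sets 2 moved and 54 did not. Few could move in the latter, because CSE1L alone of the members recomputed took its value from such a probe set. Members with 1 probe set, such as NUP107 and XPOT, could not move with the median. Of all 168 values, 0 changed sign from a main value of 0.1 or more. The 168 include those that could not move, and 30 moved by more than 0.1. The largest such move was that of RCC1 in MPA against DMSO, at -0.91. Single arrays without replicates and signals near the floor (IPO11, XPO5, NUP210) limit the precision.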

Other observations

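Genes of mRNA export and of the nuclear lamina, which adjoin the pore, were read from lists beside the members. Of 19 mRNA export genes, 16 were above the floor, and 12 of these were lower with MPA than in DMSO, with a median of -0.26, where 49.1% of all genes were lower. In each direction 1 gene passed 1.5-fold (6.2%), near the shares of all genes, 7.31% lower and 5.31% higher. NXT1, the partner of the mRNA export receptor, had a signal of 315 with MPA, 559 with guanosine, 590.2 with both compounds and 582 in DMSO, a log2 difference of -0.89 with MPA. THOC6, a subunit of the THO complex, went the other way, at 174 with MPA, 75.4 with guanosine, 82.9 with both compounds and 92.3 in DMSO, a difference of 0.92. ALYREF, an export adaptor, was at -0.54.

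Of 13 lamina and inner membrane genes, 10 were lower with MPA than in DMSO, 4 by at least 1.5-fold (30.8%, against 7.31% of all genes), with a median of -0.19. These 4 were TMPO (-0.98), LMNB2 (-0.90), the lamin B receptor gene LBR (-0.89) and LMNB1 (-0.86). LMNB2 had a signal of 895 with MPA, 1579 with guanosine, 1589 with both compounds and 1669 in DMSO, with the MPA array well below the other 3. LMNA was at 0.13. With both compounds against MPA, the same list had a median of 0.38.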
